A study of Homo sapiens with 4 samples.

Results

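The genes described here are 10 members of the RGS family, regulators of G protein signalling: RGS2, RGS3, RGS4, RGS5, RGS10, RGS12, RGS14, RGS16, RGS17 and RGS19. They were taken by name from a count table of 61860 genes. The set was chosen by measured values, the counts of RGS16 near 0 in the control and high after treatment, so the comparison of treatment with control is given for these genes as a description. Where the text says whether one of them was past the threshold of the fit across all genes, that too describes the values, and nothing is supported with it. Total RNA of HT1376, a line of human bladder carcinoma cells long kept in culture, was sequenced in 4 samples. The 2 control samples received an agent labelled WFI and the 2 treated samples received enfortumab vedotin (EV) at 1 nM, each for 48 h. EV joins an antibody that binds nectin-4 on the cell surface to the microtubule poison monomethyl auristatin E. The labels name no separate cultures for the 2 replicates, so the p-values given for other genes cover the spread from sample to sample alone, and that may be technical.

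RGS proteins switch G protein signals off. A receptor that has bound its ligand loads the alpha subunit of a G protein with GTP, and an RGS protein speeds up the hydrolysis of that GTP, which lets the alpha subunit go back to the beta and gamma subunits. The RGS domain does this work in every family. The small R4 proteins, here RGS2, RGS3, RGS4, RGS5 and RGS16, are mostly an RGS domain with a membrane-binding helix, and several of their genes are known as early responders to hormones and stress. The R12 proteins RGS12 and RGS14 also carry a GoLoco motif that holds Gi alpha subunits in the GDP form, while their relative RGS10 is small. The RZ proteins RGS17 and RGS19 have a cysteine string that anchors them to membranes.

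Total counts ran from 19368791 to 20727175 per sample. Log2 levels correlated across genes at Pearson r = 0.992 within WFI and 0.982 within EV, and at 0.885 to 0.887 between the groups. The epithelial keratins KRT8 and KRT18 had 15269 and 7933 counts in WFI replicate 1, whereas KRT20 had 0 counts in all 4 samples, UPK3A at most 1, KRT19 at most 6, UPK2 at most 7 and CDH1 at most 9. The 10 urothelial and epithelial genes summed to 1125 and 1118 CPM in WFI and to 2623 and 2656 CPM in EV. Of the 10, 5 were too low to be tested, and the 5 tested were called higher. Over all genes tested, 34.5% were called higher and 31.5% lower. Of those called, GATA3 had 16 and 19 counts in WFI and 183 and 195 in EV. KRT5 had 0 and 0 against 97 and 134, and EPCAM had 3 and 6 against 26 and 15. With under 10 counts in both controls, KRT5 and EPCAM could pass the filter on low counts only through EV. Lists of markers for other cells also moved with the treatment. The 9 smooth muscle and pericyte genes summed to 205 and 206 CPM (counts scaled to a common library depth) in WFI and to 110 and 113 CPM in EV, and MYH11 had at most 1 count in any sample. Of the 8 tested, ABCC9 and CSPG4, which made up most of the sum, were called lower. CNN1 (5 and 7 counts in WFI, 237 and 235 in EV) and DES (1 and 0 against 13 and 21) were called higher. CNN1 and DES, also under 10 counts in both controls, could pass only through EV. The 9 leukocyte genes summed to 1.79 and 2.63 CPM in WFI and to 44.5 and 45.2 CPM in EV, of which ITGAM gave 25.5 and 26.5 CPM in EV. The 4 tested were called higher, 3 of them with under 10 counts in both controls. CD79A had 2 and 1 counts in WFI and 182 and 155 in EV, and CD14 had 26 and 42 against 128 and 146. The defining leukocyte gene PTPRC had 1 and 3 counts in WFI and 4 and 9 in EV, and CD3E had 0, 0, 0 and 4. The 5 endothelial genes summed to 2.03 and 2.49 CPM in WFI and to 7.09 and 9.35 CPM in EV. RGS5 is known from pericytes and RGS2 and RGS16 from leukocytes among other cells. The samples are of a cultured carcinoma line, and a link of these marker genes to the values below was not tested. In RNA from whole cultures, a change in the number of cells of a kind and a change in RNA per cell cannot be told apart.

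RGS16 and RGS2 stood out among the 10 genes. RGS16 was near 0 in the control and at 57.6 ± 0.202 CPM (SD, n = 2) in EV, and RGS2, low in the control, was 22.3 times as high in EV (95% counting interval 19.004 to 26.2). The other 8 genes lay between a log2 fold change of -0.94 (RGS17) and 1.20 (RGS5). All 10 passed the filter on low counts, and RGS16 passed it only through its EV counts. In edgeR's quasi-likelihood fit across 17465 genes, 6 of the 10 were past an adjusted p of 0.05 on the higher side (RGS2, RGS5, RGS10, RGS14, RGS16 and RGS19) and 1 on the lower side (RGS17). Without WFI replicate 2, 3 of the 10 were higher, and without EV replicate 1, 2 were lower. Over all genes tested 66.0% were called, 34.5% higher and 31.5% lower. The call of RGS16 was fixed by how the set was chosen. The absolute log2 fold change was 1 or more for RGS16, RGS2 and RGS5, against 30.8% of all genes tested that were also past the threshold. The groups did not overlap for 9 of the 10, RGS3 being the exception, against 82.8% of all genes tested. The median log2 fold change was 0.36 over the 10 genes and 0.02 over all genes tested.

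**Figure D1:**
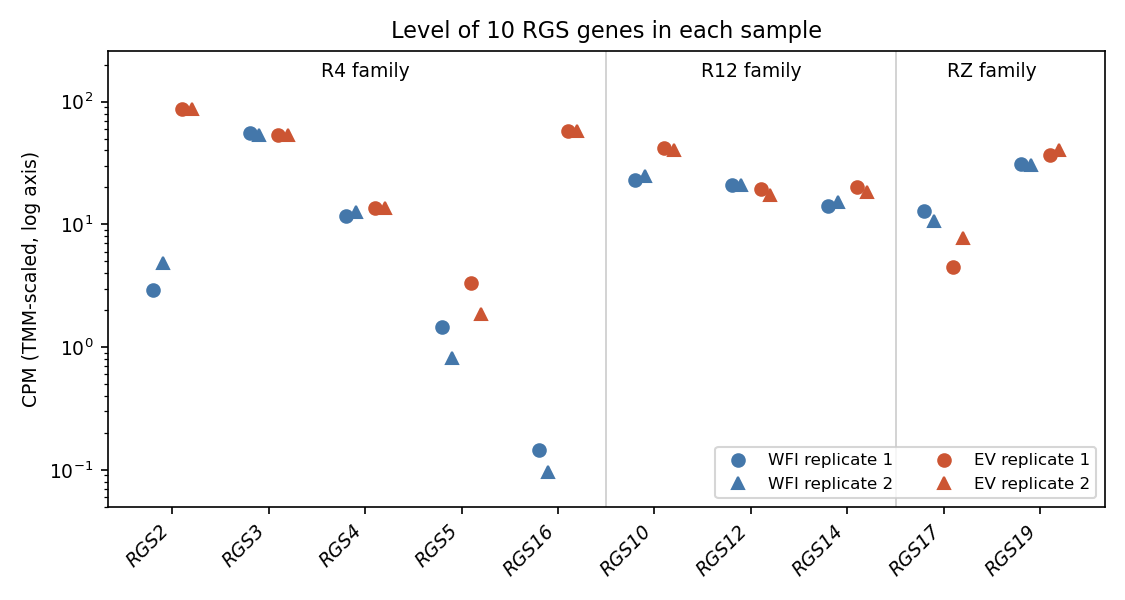
Level of each RGS gene in each sample, in TMM-scaled CPM on a log axis, with WFI in blue, EV in red, circles for replicate 1 and triangles for replicate 2. RGS16 lies between 0.0956 and 0.145 CPM in WFI and at 57.4 and 57.7 CPM in EV, and RGS2 between 2.91 and 4.88 CPM in WFI and at 86.4 and 87.1 CPM in EV.

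The stretches just upstream of the starts of RGS16 and RGS2 are shown because these genes differed the most between the groups. Both come from RefSeq on GRCh38.p14, with 250 bases read 5′ to 3′ on the strand of the gene and ending next to the RefSeq start site. RGS16 is on the minus strand at chr1:182604390-182604639 and RGS2 on the plus strand at chr1:192808789-192809038. The GENCODE model of RGS16, used for the gene positions given here, starts at 182604408, inside its stretch. Capitals mark matches to the motifs searched.

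RGS16: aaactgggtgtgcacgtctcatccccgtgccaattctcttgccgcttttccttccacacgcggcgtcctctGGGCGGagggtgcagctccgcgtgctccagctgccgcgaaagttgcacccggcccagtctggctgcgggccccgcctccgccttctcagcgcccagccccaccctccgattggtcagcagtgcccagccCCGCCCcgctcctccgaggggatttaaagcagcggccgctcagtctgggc

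RGS2: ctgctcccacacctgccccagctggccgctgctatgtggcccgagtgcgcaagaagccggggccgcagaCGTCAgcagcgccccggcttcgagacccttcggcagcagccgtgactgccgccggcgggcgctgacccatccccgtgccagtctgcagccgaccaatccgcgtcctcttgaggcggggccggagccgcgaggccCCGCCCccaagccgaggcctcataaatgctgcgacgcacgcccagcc

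Motifs were searched on both strands in windows that ran from 250 bases before to 50 after a start, and the 10 genes had 24 such windows. The motifs were the cyclic AMP response element TGACGTCA, its half-site TGACG, the AP-1 site TGANTCA, the CArG box bound by serum response factor, TATAAA and the GC box GGGCGG. A full element would also be counted as a half-site. RGS16 held 2 GC boxes and no other searched motif. RGS2 held 1 GC box and 1 half-site, read on the opposite strand as CGTCA. The half-site was in 5 of the 24 windows, from 4 of the 10 genes, against 24.5% of 34796 distinct windows of the same length. Overlapping windows of RGS4 held the same half-site. The GC box was in 12 of 24, against 44.9%. The full element, the AP-1 site and the CArG box were in 0 of the 24 windows, against 1.84%, 7.73% and 1.30% of all windows. TATAAA was in 2 of 24, against 11.6%. These are matches of letters and do not show that a factor binds there.

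RGS16 (ENSG00000143333, hg38 chromosome 1, 182598623 to 182604408, minus strand) acts on Gi and Gq alpha subunits. It had 3 and 2 counts in WFI and 1050 and 1112 counts in EV, which is 0.145 and 0.0956 CPM against 57.7 and 57.4 CPM. Both EV samples were thus far above both controls and almost equal to each other. The ratio of the summed counts, scaled for depth, was 479, with an exact binomial 95% interval of 205 to 1476 that covers counting error alone. The fitted log2 fold change was 8.83 (SE 0.20), a value that depends on the small count added to genes near 0. Of 960 tested genes with 5 or fewer counts over both controls, 959 were past the threshold on the higher side (99.9%), since such a gene can pass the filter only through EV. By log2 fold change from the highest down, RGS16 ranked 59 of 17465 genes tested and RGS2 ranked 788. Over the 11 alternatives it ran from 8.47 to 9.11.

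RGS2 (ENSG00000116741, chromosome 1, 192809039 to 192812283, plus strand) acts mainly on Gq alpha subunits and is known to damp vasoconstrictor signals. Its counts were 60 and 102 in WFI and 1571 and 1686 in EV. In CPM the controls stood at 2.91 and 4.88 and the EV samples at 86.4 and 87.1. The controls differed from each other more than the EV samples did, yet both were far below EV. The means were 3.89 ± 1.39 and 86.7 ± 0.509 CPM (SD, n = 2), with a log2 fold change of 4.47 (SE 0.15). The log2 fold change was 4.12 without WFI replicate 1 and 4.86 without WFI replicate 2, and all 11 alternatives were past the threshold. A long noncoding gene on the opposite strand that overlaps RGS2 had 4 and 8 counts in WFI and 29 and 13 in EV.

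The other R4 genes differed far less between the groups. RGS4 (chromosome 1, 163068775 to 163076802, plus strand), which acts on Gi and Gq alpha subunits, stood at 11.7 and 12.5 CPM in WFI and 13.6 and 13.5 CPM in EV (log2 fold change 0.17, SE 0.13). The EV samples were above the controls by little more than the controls differed from each other. RGS3 (chromosome 9, 113444731 to 113597743, plus strand), a large gene with 32 annotated transcripts, stood at 55.5 and 53.3 CPM in WFI and 53.2 and 54.0 CPM in EV, so its groups overlapped (log2 fold change -0.02, SE 0.07). RGS5 (chromosome 1, 163111121 to 163321791, minus strand), which acts on Gi and Gq and marks pericytes in tissue, had few counts, with 30 and 17 in WFI and 61 and 36 in EV. The lower EV sample, at 1.86 CPM, was not far above the higher control, at 1.45 CPM. Its log2 fold change was 1.20 (SE 0.45), and it fell short of the threshold without WFI replicate 2 (0.81), without EV replicate 1 (0.70), with DESeq2 and with no count filter. RGS5 overlaps NUF2, a kinetochore gene on the opposite strand with 999 to 1336 counts per sample. The strand setting of the counting is not given in the sources used here, so the split of reads between RGS5 and NUF2 is uncertain. A noncoding gene on the same strand also overlaps RGS5, with 11 and 14 counts in WFI and 9 and 12 in EV. Knowing the strand would not settle that overlap.

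Within the R12 genes, RGS10 (chromosome 10, 119499828 to 119542708, minus strand), which acts on Gi alpha subunits, was higher in EV by the most. It stood at 23.0 and 24.6 CPM in WFI and 41.6 and 40.6 CPM in EV, and the groups were well apart. The means were 23.8 ± 1.15 and 41.1 ± 0.644 CPM (SD, n = 2; log2 fold change 0.79, SE 0.09), past the threshold in all 11 alternatives. RGS14 (chromosome 5, 177357837 to 177372601, plus strand) stood at 14.1 and 15.1 CPM in WFI and 20.01 and 18.3 CPM in EV (log2 fold change 0.39, SE 0.12), with both EV samples above both controls. It was not past the threshold without WFI replicate 1 (0.31) or WFI replicate 2 (0.41), nor with no count filter. RGS12 (chromosome 4, 3293028 to 3439913, plus strand), a large scaffold protein, stood at 21.01 and 21.1 CPM in WFI and 19.3 and 17.3 CPM in EV (log2 fold change -0.20, SE 0.11). It was a little lower in both EV samples and did not pass, although it did without EV replicate 1 (-0.29).

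The RZ genes went opposite ways. RGS17 (chromosome 6, 153004459 to 153131249, minus strand), which acts on Gz and Gi alpha subunits, stood at 12.7 and 10.7 CPM in WFI and 4.51 and 7.70 CPM in EV. The EV samples were both lower but differed from each other more than the controls did. The log2 fold change was -0.94 (SE 0.23), and it was -0.62 without EV replicate 1 and -1.39 without EV replicate 2. RGS19 (chromosome 20, 64073181 to 64079988, minus strand), which binds the adaptor GIPC1, stood at 30.9 and 30.4 CPM in WFI and 37.0 and 40.4 CPM in EV (log2 fold change 0.34, SE 0.09). Both EV samples were above both controls, and it was not past the threshold without WFI replicate 1 (0.32) or WFI replicate 2 (0.29).

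The smaller differences changed once length and GC content were taken into account. Each sample was corrected for a smooth trend of level on GC content and on spliced length, which is the number of bases in the union of the exons of a gene. The corrected log2 fold change of RGS17, with 7899 spliced bases and 32.3% GC in its longest transcript, was 0.01 (SE 0.22). That of RGS19, with 2028 spliced bases and 62.3% GC, was -0.17 (SE 0.09), and that of RGS14 was 0.06 (SE 0.12), so these 3 were no longer past the threshold. RGS4 and RGS3 were past it after the correction, at 0.48 (SE 0.13) and 0.21 (SE 0.07). RGS12, not past the threshold before or after, stood at 0.05 (SE 0.12). RGS16, RGS2, RGS5 and RGS10 kept their side, at 8.47, 4.43, 1.85 and 0.54.

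**Figure D2:**
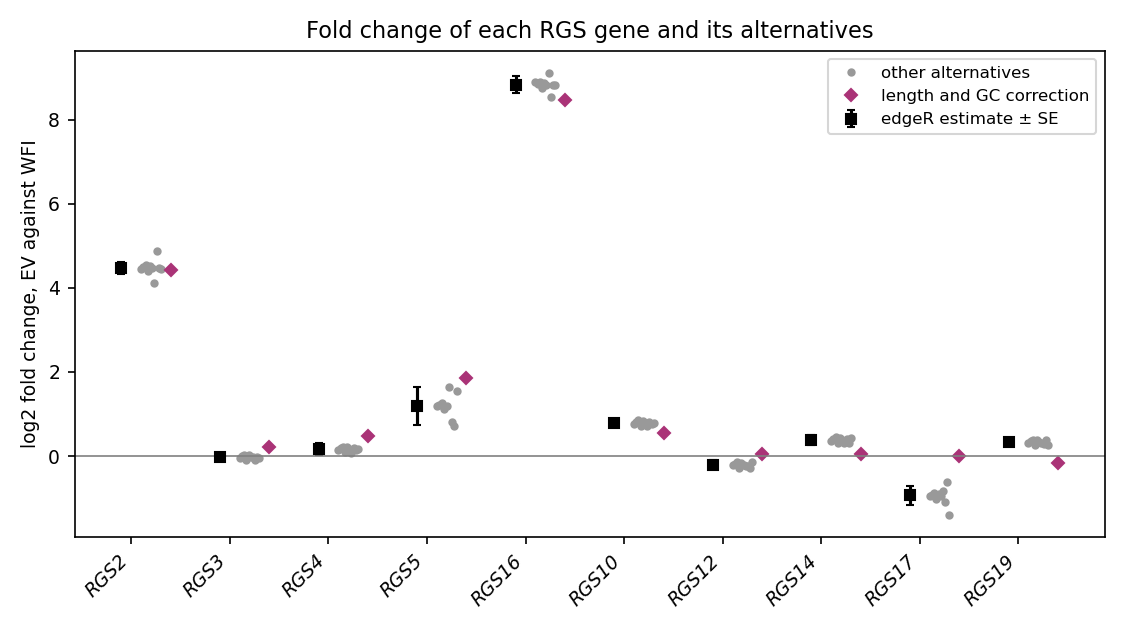
Log2 fold change of each RGS gene, EV against WFI, with the edgeR estimate and its SE (black squares), the other alternatives (grey dots) and the correction for length and GC content (purple diamonds). RGS16 and RGS2 stay far above 0 under each setting run, while RGS17 and RGS19 reach 0.01 and -0.17 under the correction.

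Levels of different genes were compared per length, as RPKM, CPM per kilobase of merged exons. In WFI the order ran RGS10 (18.98), RGS19 (15.1), RGS3 (3.95), RGS14 (3.85), RGS4 (2.50), RGS2 (1.86), RGS12 (1.53), RGS17 (1.48), RGS5 (0.166) and RGS16 (0.0496 RPKM). Neighbours whose samples overlapped were RGS3 and RGS14, RGS2 and RGS12, and RGS12 and RGS17. In EV the order ran RGS2 (41.4), RGS10 (32.8), RGS16 (23.7), RGS19 (19.1), RGS14 (5.05), RGS3 (3.89), RGS4 (2.81), RGS12 (1.33), RGS17 (0.772) and RGS5 (0.382 RPKM), and no neighbours overlapped. RGS16 thus went from the last place to the third and RGS2 from the sixth to the first. Together RGS2 and RGS16 made up 2.98% and 4.69% of the summed RPKM of the 10 genes in the 2 WFI samples and 49.7% and 49.5% in the 2 EV samples. The other 8 genes summed to 47.1 and 48.1 RPKM in WFI and 65.9 and 66.5 RPKM in EV. The sum over the listed members was thus higher also without that pair, and RGS genes outside the 10 are not in it. RGS10 and RGS19 differed most among the 8, while RGS3, RGS12 and RGS17 were lower in EV. These levels were not corrected for GC content and trends with length, which took RGS19 to a log2 fold change of -0.17. Merged exons can exceed the transcript that is expressed. With the median length of the coding transcripts in the basic annotation, the order in WFI was RGS10, RGS3, RGS19, RGS4, RGS14, RGS12, RGS2, RGS17, RGS5 and RGS16. In EV it was then RGS2, RGS10, RGS19, RGS16, RGS3, RGS14, RGS4, RGS12, RGS5 and RGS17, so RGS16 went from last to rank 4 and RGS2 from rank 7 to rank 1.

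**Figure D3:**
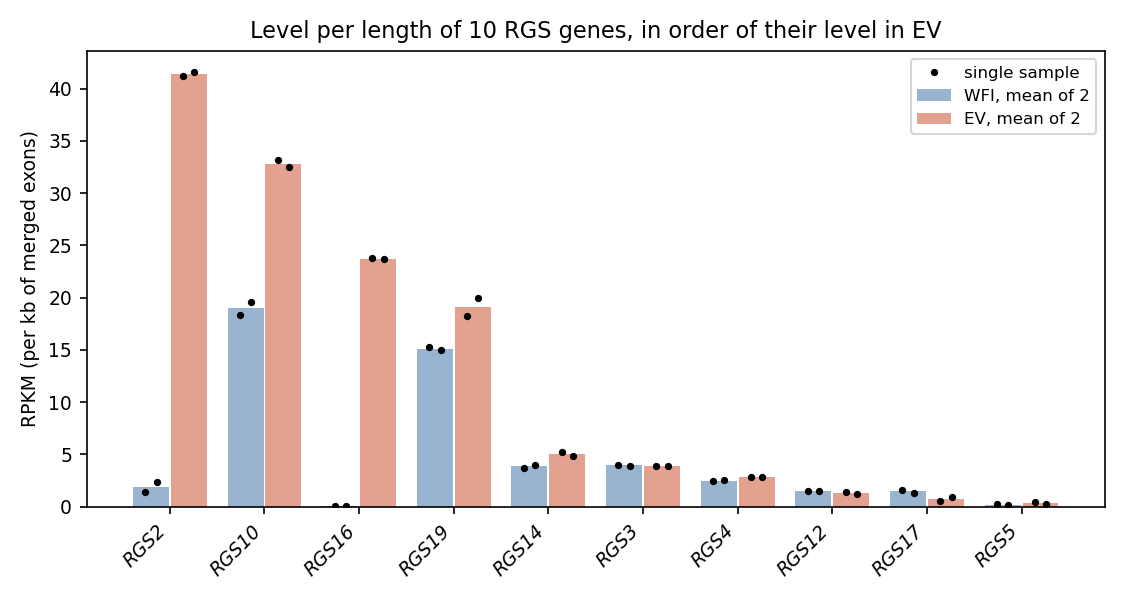
Level per length of each RGS gene, in RPKM, with bars for the mean of 2 samples and dots for single samples, ordered by the level in EV. RGS2 stands at 1.86 in WFI and 41.4 in EV, RGS16 at 0.0496 and 23.7, and RGS10 at 18.98 and 32.8.

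Of the remaining 11 genes named RGS, 5 were too low to be tested. RGS1, RGS13 and RGS21 had 0 counts in all 4 samples. Of the 6 tested, 4 were called higher and 0 lower, beside 34.5% higher and 31.5% lower over all genes tested. Of those 4, RGS6, RGS7 and RGS8 had at most 1 count in a control and could pass only through EV. RGS7 had 0 counts in both controls and 16 in each EV sample, at least 5.91-fold higher against a floor of 3 counts per library. RGS8 had 0 counts in both controls and 16 and 13 in EV, at least 5.37-fold higher, and RGS6 had 1 and 0 against 13 and 12, a ratio of 27.7 (95% interval 4.53 to 1136). The median log2 fold change of the 6 was 2.49, and 1.46 with RGS7 and RGS8 at their bounds. RGS9, which pairs with Gβ5 in photoreceptors and neurons, rose from 6.88 ± 0.130 CPM in WFI to 9.75 ± 1.04 CPM in EV (SD, n = 2; log2 fold change 0.50, SE 0.17, edgeR adjusted p = 0.0249). The adjusted p of RGS9 missed the threshold in 5 of 11 alternatives, with log2 fold changes of 0.38 to 0.49. It was 0.0676 with DESeq2, and in edgeR it was 0.0977 with no count filter and 0.138, 0.170 and 0.0733 without WFI replicate 1, WFI replicate 2 and EV replicate 2. Corrected for length and GC content, the log2 fold change of RGS9 was 0.86. RGS20, the third RZ gene, was well expressed at 11.4 RPKM in WFI and 12.8 RPKM in EV and did not pass (log2 fold change 0.16, SE 0.08, edgeR adjusted p = 0.115). Of the 21 RGS genes looked at, 10 lie on chromosome 1, RGS2, RGS4, RGS5 and RGS16 among them.

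Genes that work beside RGS proteins were taken from 7 lists of 121 genes, of which 97 were tested. Over the lists 28 rose, 43 fell and 26 did not pass. The counts here and below stand beside 34.5% higher and 31.5% lower over all genes tested, and no list was tested against the other genes. Of the 28, 11 had under 10 counts in both controls and could pass only through EV. For these genes levels are mean ± SD over 2 samples in WFI and then EV, and signed values in parentheses are log2 fold changes. The adjusted p-values below are from edgeR's quasi-likelihood test, over all 17465 genes.

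Among 30 G protein-coupled receptors tested, 6 rose, 18 fell and 6 did not pass. Their median log2 fold change was -0.63, and 3 of the 6 that rose, CXCR4, ACKR3 and PTGER3, had under 10 counts in both controls. The bradykinin receptor BDKRB2, which signals through Gq, was at 19.3 ± 0.787 CPM and fell to 1.44 ± 0.290 CPM (-3.74, SE 0.20, edgeR adjusted p = 2.72e-08). BDKRB1 was at 5.87 ± 0.257 CPM and fell to 1.12 ± 0.101 CPM (-2.39, SE 0.29, edgeR adjusted p = 3.12e-05). PTGER4, a prostaglandin E2 receptor that raises cyclic AMP through Gs, was at 4.79 ± 0.331 CPM and rose to 62.9 ± 0.362 CPM (3.71, SE 0.11, edgeR adjusted p = 2.25e-10). The chemokine receptor CXCR4, which signals through Gi, had 7 and 9 counts in WFI and 357 and 369 in EV. It could pass the filter only through EV, so its call is given without a p. ACKR3, which binds the same chemokine, had 0 and 2 counts in WFI and 174 and 238 in EV, a ratio of 228 (95% interval 62.7 to 1889). ACKR3 and PTGER3 were picked after their values were seen.

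The G alpha subunits are the direct substrates of RGS proteins. Of 13 tested, 8 fell, while 3 rose and 2 did not pass, and the median log2 fold change was -0.27. Of the 3 that rose, 1 had under 10 counts in both controls and could pass only through EV. With RLE or upper quartile scaling 6 fell in place of 8. GNAS, which encodes the Gs subunit that most RGS proteins do not act on, was at 1340 ± 2.61 CPM and rose to 3018 ± 20.8 CPM (1.17, SE 0.02, edgeR adjusted p = 7.96e-12). GNAI3, a Gi subunit, was at 151 ± 4.57 CPM and fell to 96.2 ± 6.87 CPM (-0.65, SE 0.06, edgeR adjusted p = 2.1e-06), and GNA13 was at 140 ± 4.81 CPM and fell to 94.2 ± 0.836 CPM (-0.58, SE 0.05, edgeR adjusted p = 1.75e-06). Corrected for length and GC content, GNAI3 stood at 0.07 (SE 0.05) and did not pass, GNA13 stood at -0.28, and 5 subunits fell in place of 8. Of 14 beta and gamma subunits, 6 rose, 2 fell and 6 did not pass, and the median was 0.41. Of the 6 that rose, 2 had under 10 counts in both controls and could pass only through EV. GNG5 rose by 0.90 (SE 0.11, edgeR adjusted p = 2.43e-05) and GNG2 by 0.84 (SE 0.17, edgeR adjusted p = 0.00123) in log2 fold change, whereas GNB4 fell by 0.96 (SE 0.08, edgeR adjusted p = 8.9e-07). GNG12 fell by 0.34 (SE 0.04, edgeR adjusted p = 1.6e-05), and stood at 0.05 (SE 0.04) after the correction. The correction took GNG5 to 0.37, GNG2 to 1.27 and GNB4 to -0.42, all still past the threshold.

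Of 10 adenylyl cyclases and phospholipases C beta tested, 3 rose, 5 fell and 2 did not pass, and the median was -0.30. Of the 3 that rose, 2 had under 10 counts in both controls and could pass only through EV. The cyclases ADCY9 and ADCY7 fell by 1.28 (SE 0.08, edgeR adjusted p = 1.73e-07) and by 0.93 (SE 0.08, edgeR adjusted p = 1.8e-06) on the log2 scale, and PLCB1 rose by 1.06 (SE 0.21, edgeR adjusted p = 0.000934), or by 1.77 after the correction. Of 14 receptor kinases and other proteins with an RGS domain, 3 rose, 6 fell and 5 did not pass, and the median was -0.17. AXIN2, a scaffold and feedback target of Wnt signalling, was at 1.25 ± 0.147 CPM and rose to 15.2 ± 0.446 CPM (3.60, SE 0.21, edgeR adjusted p = 6.6e-08). The receptor kinase GRK6 rose by 0.40 (SE 0.07, edgeR adjusted p = 0.00054), but did not pass once corrected for length and GC content (0.12, edgeR adjusted p = 0.124). AKAP10 fell by 0.87 (SE 0.11, edgeR adjusted p = 2.85e-05) and ARHGEF12 fell by 0.82 (SE 0.04, edgeR adjusted p = 2.14e-08), the latter by 0.10 after the correction. After the correction 2 of these 14 fell. Of 10 other modulators, 3 rose, 4 fell and 3 did not pass, and the median was 0.03. RIC8B, a chaperone of Gs alpha subunits, rose by 1.58 (SE 0.11, edgeR adjusted p = 2.08e-07) and the arrestin ARRB2 rose by 0.47 (SE 0.08, edgeR adjusted p = 0.000347). The other beta arrestin, ARRB1, fell by 1.30 (SE 0.14, edgeR adjusted p = 8.46e-06), and CCDC88A fell by 1.07 (SE 0.05, edgeR adjusted p = 2.39e-08). After the correction ARRB2 stood at 0.22 and CCDC88A at -0.17, both still past the threshold.

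**Figure D4:**
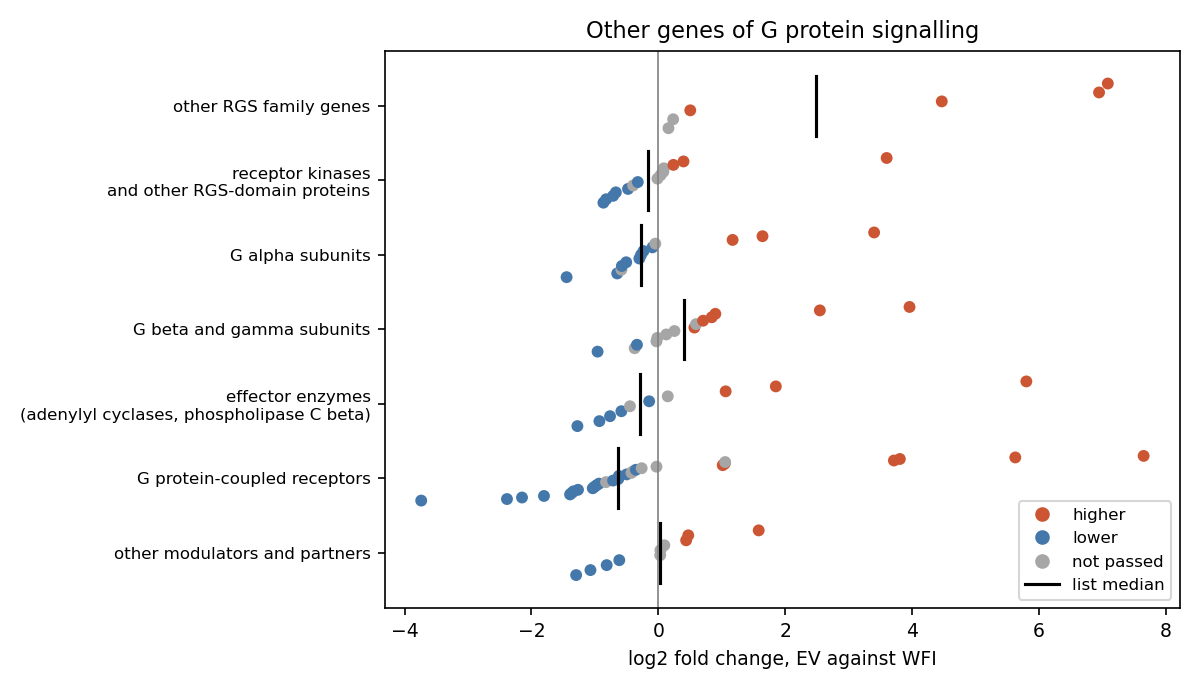
Log2 fold change, EV against WFI, of the tested genes in 7 lists of G protein signalling, one dot per gene, with red for higher, blue for lower and grey for not passed, and a black line at the median of each list. Receptors have 18 genes lower and 6 higher with a median of -0.63, and beta and gamma subunits have 6 higher and 2 lower with a median of 0.41.

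The genes most like RGS16 in level over the 4 samples were found by Euclidean distance of log2 CPM among all tested genes with a symbol. The nearest 5 were PCDH19, a protocadherin (distance 0.754), FRG2C (1.01), the pseudogene KLKP1 (1.17), FAM166A (1.22) and the integrin subunit ITGAM (1.62). PCDH19 had 6 and 3 counts in WFI and 986 and 1210 in EV. ITGAM had 3 and 2 counts in WFI, as RGS16 did, and 464 and 513 in EV. With 4 samples in 2 groups, such a distance is short for any gene near 0 in the control and at a similar level in EV, and FRG2C has near-identical copies whose reads may be shared.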

How the data were processed

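RNA was measured in 2 WFI and 2 EV samples of HT1376. The authors deposited whole-number counts per Ensembl gene, and per the submitters' processing notes the build was hg38. The annotation release, aligner, counting tool and use of strand are not given in sources used here. The labels' protocols name a directional library kit. The members and gene lists were chosen with earlier results of these data known. Counts were fitted with edgeR 4.0.16 in R 4.3.3 (TMM scaling, filterByExpr on the group, quasi-likelihood test, group as the only term), and 17465 of 61860 genes were tested. A gene was called at a p below 0.05 after Benjamini-Hochberg adjustment over all genes tested. The SE is the size of the log2 fold change divided by the square root of F. CPM uses TMM-scaled library sizes, so a level is a share of the RNA measured. A floor of 3 counts per library was 0.145 and 0.143 CPM in WFI. Gene models (positions, GC content, lengths) were those of GENCODE release 29 on hg38, and symbols matched 61757 identifiers. Named genes were the 10 members, in each list the 2 largest called rises and falls whose log2 CPM averaged at least 1, and the 5 genes nearest to RGS16. Alternatives were upper quartile or RLE scaling, DESeq2 1.42.0, a filter of 50 counts in 2 samples or none, leaving out each sample, a replicate block, a minimum absolute log2 fold change of 1, and offsets for spliced length and GC content. For RPKM, other scalings, another gene length and leaving out samples were chosen after seeing the data. The fit was tested on simulated data in which far fewer genes changed than were called here. That test does not cover changes this broad. Counting noise alone did not account for the spread between replicates (chi-square per degree of freedom 2.20 in WFI and 4.58 in EV), so they were not taken for copies of one library, which does not show that they are separate cultures.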

Additional observations from a re-analysis of the deposited data

How the results depend on the processing

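RGS2 and RGS10 were higher in EV and past the threshold in each of 11 alternatives. So was RGS16, as the choice of the set fixed. Under the length and GC correction RGS17, at 0.0096 (SE 0.22), and RGS19, at -0.17 (SE 0.09), were no longer past the threshold. Among these 11, only that correction changed their sign, and it also took GNAI3 to 0.0703 and GNG12 to 0.0472. Leaving out 1 sample gave 3 to 6 RGS members higher (3 without WFI replicate 2) and 1 to 2 lower (2 without EV replicate 1), and 2 to 3 of the other RGS family genes higher (2 without WFI replicate 2, EV replicate 1 or EV replicate 2). After the length and GC correction 0 members, 2 proteins with an RGS domain, 5 alpha subunits and 1 beta or gamma subunit were lower. With the filter of 50 counts 2 other RGS family genes were higher. RLE and upper quartile scaling each gave 6 alpha subunits lower. With a minimum absolute log2 fold change of 1, calls fell to 5385 genes (3063 higher, 2322 lower), to 3 members higher and 0 lower, to 1 higher and 0 lower among proteins with an RGS domain, 1 lower among alpha subunits, 2 higher and 0 lower among beta and gamma subunits, 1 lower among effector enzymes, 10 lower among receptors, and 1 higher and 2 lower among other modulators. Without a sample, all genes called ran from 9538 to 11772. In EV, RGS2 stood at 41.7 RPKM with RLE and 42.2 with upper quartile scaling, and RGS16 at 23.9 and 24.2. With the median coding transcript length, RGS2 stood at 2.87 RPKM in WFI and 64.0 in EV. Over the genes tested, the scalings moved the median log2 fold change from 0.02 to at most 0.08. Samples of the same replicate number showed no shared shift across genes (correlation of deviations 0.016), which cannot show whether they were prepared as pairs. A replicate block gave 6 members higher and 1 lower, as without it. Genes with few counts, RGS5 among the members, are limited by depth.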

Other observations

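Some coding neighbours of RGS genes were looked at after the values were seen. OPRL1, the nociceptin receptor gene, starts 185 bases from RGS19 on the opposite strand, and it had 28 and 17 counts in WFI and 8 and 4 in EV (log2 fold change -1.74, SE 0.64, edgeR adjusted p = 0.0324), while RGS19 was a little higher in EV. RGS8 starts 80168 bases from RGS16 and is the near-silent family member with 16 and 13 counts in EV described above. RGS13, whose start lies 172901 bases from that of RGS2, had 0 counts in all 4 samples.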
